A study of Rattus rattus with 8 samples.

Results

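The 10 genes described here encode secreted signals of inflammation, an enzyme and an adhesion receptor: Il6, Lif, Il11, Ccl2, Ccl7, Cxcl1, Cxcl2, Cxcl12, Ptgs2 and Icam1. They were taken by gene name from a table of 30957 rat genes, and all 10 had a single row and passed the filter on low counts that kept 12983 genes. They were chosen by their measured levels in these same libraries, as inflammatory genes that vary between cultures, most of all between replicate 4 and the others. Their differences between cultures are therefore a description, with no p-value, while 4n was tested against 2n.

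Messenger RNA was sequenced in 8 libraries of cultured neonatal rat cardiomyocytes (NRCM), heart muscle cells isolated from SD rats 1 to 3 days after birth. Cultures were enriched by differential adherence, which removes fast-adhering fibroblasts, then grown for 24 h in medium with an insulin, transferrin and selenium supplement and AraC (0.2 mM), which blocks DNA synthesis. They were then starved of serum and held at 1% oxygen for 48 h. Cells were stained with 2 µg/mL Hoechst 33342, a DNA dye, and sorted by DNA content. The tetraploid (4n) group and the diploid (2n) group had 4 libraries each, numbered as replicates 1 to 4 and described as independent experiments. Both groups came from hypoxic, serum-starved, AraC-treated cultures, so none of the values below shows an effect of hypoxia. A 4n signal can come from a tetraploid nucleus, a binucleated cell, a cell in G2 or M phase or a pair of adhering 2n cells. Libraries with the same number share the first part of their description, and a number is called a culture below.

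In inflammation, cells that meet microbial products, injury or the cytokines TNF and IL-1 activate the transcription factor NF-κB, which switches on chemokines, IL-6, prostaglandin synthesis and adhesion molecules. Chemokines are small secreted proteins that draw leukocytes along a gradient, CC chemokines chiefly monocytes and the CXC chemokines of the Cxcl1 kind chiefly neutrophils. Cytokines of the IL-6 family share the receptor subunit gp130 and signal through JAK kinases to STAT3. In the heart, fibroblasts, endothelial cells and resident macrophages are major sources of such signals, and cardiomyocytes respond to IL-6 family cytokines.

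Library totals lay between 15326219 and 16885512 counts in 4n and between 14783521 and 21033772 counts in 2n. The label of cardiomyocytes was checked against markers. The 11 cardiomyocyte markers took 0.515% to 2.97% of the counts in 4n and 0.0590% to 0.118% in 2n, while 9 fibroblast markers took 2.44% to 5.45% in 4n and 4.77% to 6.18% in 2n. The sorted cells of both groups therefore held much RNA of cells other than cardiomyocytes, and in such bulk samples more cells of a type and more RNA per cell cannot be told apart. Mitochondrial genes took 24.1% to 25.9% of counts in 4n replicates 2, 3 and 4, against 3.71% in 4n replicate 1 and 2.87% to 3.82% in 2n. Levels are given as CPM, counts scaled to a common library size after TMM normalisation, and levels of different genes are compared as FPKM, which also divides by gene length.

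All 10 genes stood highest in the culture of replicate 4. For each of the 10, both replicate 4 libraries exceeded the other 6 on CPM, which was also the case for 6.41% of all 12983 genes tested. The contrast chose the genes, so nothing is read from that count. Averaged over 4n and 2n, replicate 4 stood above replicates 1 to 3 by 0.92 (Icam1) to 4.10 (Il6) on the log2 CPM scale, with a median of 2.40, while the median of all genes was -0.00045. The median was 2.22 among the 4n libraries and 2.46 among the 2n libraries. With plain library totals in place of TMM, and on FPKM, 9 of the 10 kept this place; the exception was Cxcl12. These are values of 1 culture against 3, and what set that culture apart was not tested.

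**Figure D1:**
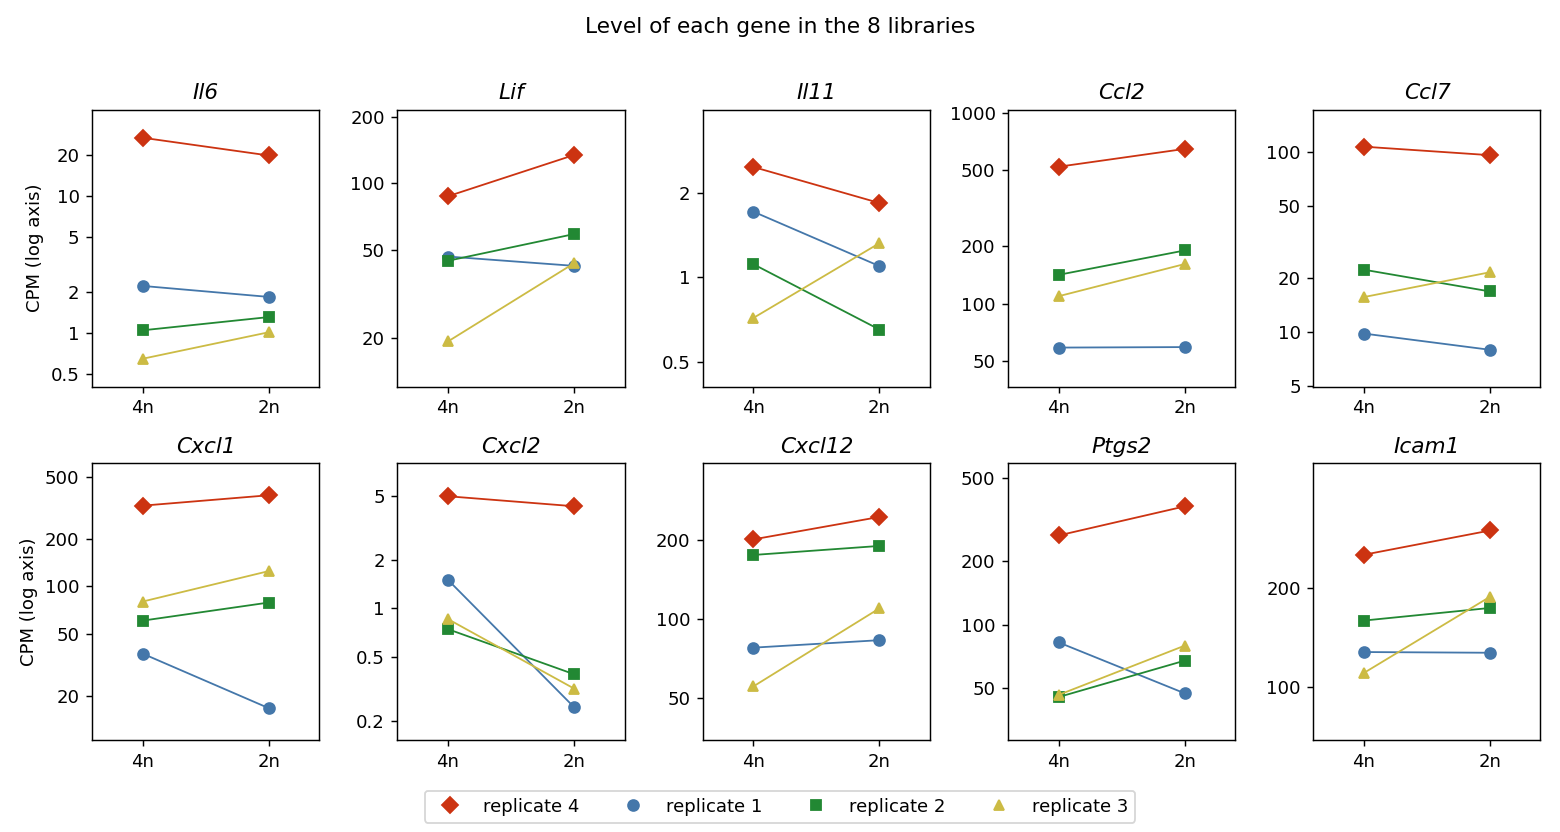
Level of each of the 10 genes in the 8 libraries, in CPM on a log axis, with 4n left of 2n and lines joining libraries of the same replicate number. In every panel both replicate 4 points lie above the other 6; Il6 stood at 26.9 CPM in 4n replicate 4 and 19.9 CPM in 2n replicate 4, against at most 2.20 CPM elsewhere.

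Among IL-6 family cytokines, Il6 (ENSRNOG00000010278, chromosome 4 from 3043231 to 3047807 in Rnor 6.0) had the widest span of the 10 genes. It encodes interleukin 6, which drives the acute phase response. It had 26.9 CPM in 4n replicate 4, against 2.20, 1.04 and 0.644 CPM in 4n replicates 1, 2 and 3. It had 19.9 CPM in 2n replicate 4, against 1.83, 1.30 and 1.01 CPM in 2n replicates 1, 2 and 3. Replicate 4 was thus 20.7 times the mean of the other 3 libraries in 4n and 14.4 times in 2n. Outside replicate 4 the gene rested on few reads, 9 to 41 counts a library, against 368 counts in 4n replicate 4 and 421 counts in 2n replicate 4. Its log2 difference of 4.10 had rank 2 among the 12983 genes tested. This contrast chose the gene, so nothing is read from the rank.

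Lif (chromosome 14, 84482674 to 84500642) encodes leukemia inhibitory factor, a gp130 cytokine that acts on cardiomyocytes. It had 87.4 CPM in 4n replicate 4, against 46.6, 44.6 and 19.2 CPM in 4n replicates 1, 2 and 3. In 2n it had 134 CPM in replicate 4, against 42.3, 58.9 and 43.5 CPM in replicates 1, 2 and 3. The span of Lif was far smaller than that of Il6, with replicate 4 at 2.37 times the mean of the others in 4n and 2.78 times in 2n. The ratio of Il6 to Lif on FPKM was 0.655 in 4n replicate 4, against 0.0497 to 0.101 in the other 4n libraries, and 0.316 in 2n replicate 4, against 0.0471 to 0.0921 in the other 2n libraries.

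Il11 (chromosome 1, 72635267 to 72643255) encodes interleukin 11, a gp130 cytokine known for its action on fibroblasts. It was the lowest of the 10 genes by length-scaled level in 6 of 8 libraries, with a 3.82-fold span from the lowest to the highest library. It had 2.48 CPM in 4n replicate 4, against 1.72, 1.12 and 0.716 CPM in 4n replicates 1, 2 and 3, and 1.85 CPM in 2n replicate 4, against 1.10, 0.651 and 1.33 CPM in 2n replicates 1, 2 and 3. These levels came from 10 to 39 counts a library. With an exact Poisson interval at 95%, which covers counting error only, the 34 counts of 4n replicate 4 allow 23.5 to 47.5 and the 32 counts of 4n replicate 1 allow 21.9 to 45.2. In 2n, the 39 counts of replicate 4 allow 27.7 to 53.3 and the 25 counts of replicate 3 allow 16.2 to 36.9. The place of replicate 4 at the top was therefore not resolved at this depth for Il11, in 4n or in 2n.

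The CC chemokine genes Ccl2 and Ccl7 are neighbours on chromosome 10, at 69412017 to 69413870 and 69423086 to 69424979, with 9.215 kb between them. Ccl2 encodes the monocyte attractant MCP-1 and Ccl7 the related MCP-3. Ccl2 had 522 CPM in 4n replicate 4, against 59.1, 142 and 109.7 CPM in 4n replicates 1, 2 and 3. It had 647 CPM in 2n replicate 4, against 59.4, 190.4 and 162 CPM in 2n replicates 1, 2 and 3. So Ccl2 varied between the other cultures too: replicate 1 was lowest in both 4n and 2n, and the other 3 libraries of a group spanned a fold of 2.40 in 4n and 3.20 in 2n.

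Ccl7 had 107 CPM in 4n replicate 4, against 9.83, 22.2 and 15.7 CPM in 4n replicates 1, 2 and 3. In 2n it had 96.1 CPM in replicate 4, against 7.99, 16.8 and 21.5 CPM in replicates 1, 2 and 3. Ccl7 followed Ccl2 from library to library more closely than it followed any other of the 10 genes. The root-mean-square difference of their log2 CPM profiles, each centred on its own mean, was 0.32 over 8 libraries. The ratio of Ccl7 to Ccl2 on FPKM lay between 0.140 and 0.201 in 4n and between 0.0868 and 0.146 in 2n.

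Cxcl1 and Cxcl2 encode related neutrophil attractants that act on the receptor CXCR2. They lie 10.293 kb apart on chromosome 14, Cxcl2 at 18731378 to 18733391 and Cxcl1 at 18743685 to 18745457. Their coding sequences are alike, so the counting could have split reads between them and Cxcl3. Cxcl1 had 329 CPM in 4n replicate 4, against 37.2, 60.5 and 80.1 CPM in 4n replicates 1, 2 and 3. It had 383 CPM in 2n replicate 4, against 16.6, 78.9 and 125 CPM in 2n replicates 1, 2 and 3. Its 3 other 2n libraries spanned a fold of 7.54, the widest such span of the 10 genes, with replicate 1 lowest.

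Cxcl2 was near the floor outside replicate 4. It had 4.97 CPM in 4n replicate 4, against 1.504, 0.744 and 0.859 CPM in 4n replicates 1, 2 and 3, from 68 counts against 28, 10 and 12. It had 4.31 CPM in 2n replicate 4, against 0.244, 0.391 and 0.318 CPM in 2n replicates 1, 2 and 3, from 91 counts against 4, 9 and 6. In 2n the 95% Poisson intervals were 3.47 to 5.29 CPM for replicate 4, against at most 0.741 CPM for the other 3. They cover counting error only. The gene was chosen for its differences between cultures, so the intervals describe depth and are no support for the gap. Per length Cxcl2 stayed far under Cxcl1, at 0.00926 to 0.0350 of its FPKM in 4n and 0.00219 to 0.0127 in 2n.

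Cxcl12 (chromosome 4, 149261044 to 149273891) encodes SDF-1, a homeostatic chemokine made by stromal cells that binds CXCR4 and ACKR3. Its pattern differed from that of the inducible chemokines in that replicate 2 stood close to replicate 4. It had 202 CPM in 4n replicate 4, against 78.1, 176 and 55.5 CPM in 4n replicates 1, 2 and 3. It had 246 CPM in 2n replicate 4, against 83.3, 190.5 and 110.2 CPM in 2n replicates 1, 2 and 3. Replicate 4 exceeded the highest other library by a fold of 1.15 in 4n and 1.29 in 2n. On FPKM its lowest replicate 4 library, at 33.2, lay under the highest other library, at 38.5.

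Ptgs2 (chromosome 13, 67351087 to 67359335) encodes cyclooxygenase 2, the inducible enzyme of prostaglandin synthesis. It had 266 CPM in 4n replicate 4, against 82.6, 45.4 and 46.5 CPM in 4n replicates 1, 2 and 3, and 365 CPM in 2n replicate 4, against 47.3, 67.6 and 79.7 CPM in 2n replicates 1, 2 and 3. Outside replicate 4 the culture means of Ptgs2 lay within 0.17 on the log2 scale. These means averaged over opposite orders, since replicate 1 was the highest of these cultures in 4n and the lowest in 2n.

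Icam1 (chromosome 8, 22035256 to 22047059) encodes an adhesion receptor that leukocytes bind through β2 integrins. It had the narrowest span, 2.71 times from the lowest to the highest library, beside a median of 1.91 times over all genes tested. It had 252 CPM in 4n replicate 4, against 128, 159 and 110.3 CPM in 4n replicates 1, 2 and 3. In 2n it had 299 CPM in replicate 4, against 127, 174 and 188 CPM in replicates 1, 2 and 3. The groups of libraries did not overlap, but the gap was small, at 1.59 times the highest other library in 4n and in 2n.

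**Figure D2:**
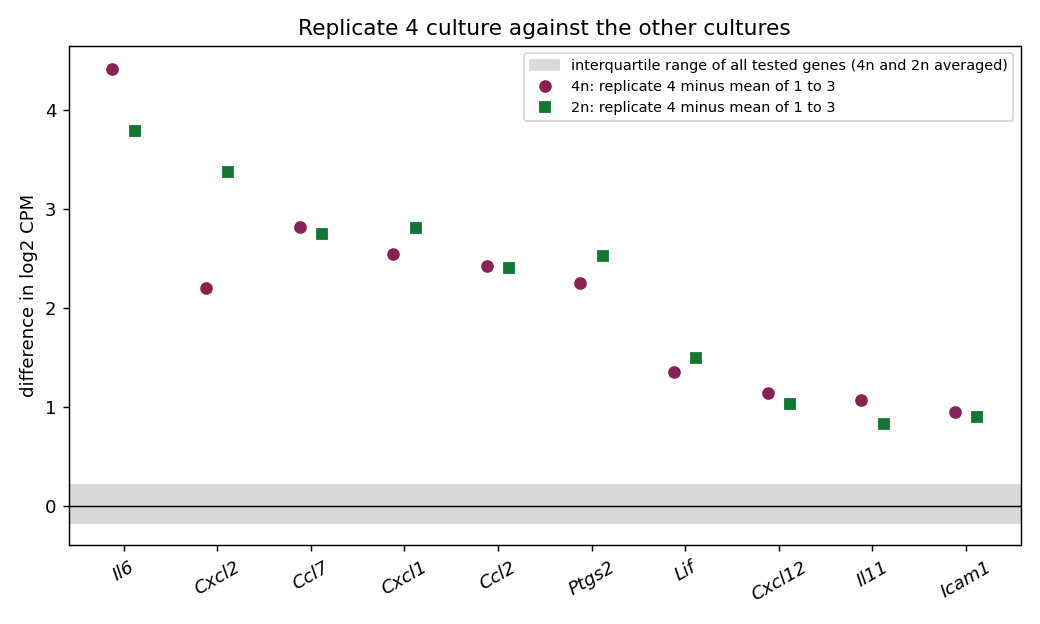
Difference in log2 CPM between replicate 4 and the mean of replicates 1 to 3, for each gene in 4n (circles) and in 2n (squares); the grey band is the interquartile range of all 12983 genes tested, -0.17 to 0.21. The genes fall from Il6, at 4.41 in 4n and 3.78 in 2n, to Icam1, at 0.95 in 4n and 0.90 in 2n, and Cxcl2 has the largest gap between 4n (2.20) and 2n (3.37).

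The 3 other cultures did not share an order across the genes. By the mean log2 CPM of a culture's 4n and 2n libraries, replicate 1 was lowest for 4 genes (Ccl2, Ccl7, Cxcl1 and Icam1), replicate 2 for 2 (Il11 and Ptgs2) and replicate 3 for 4 (Il6, Lif, Cxcl2 and Cxcl12). For Cxcl1 the 3 culture means spanned 2.00 on the log2 scale and for Ccl2 1.47. For Cxcl2 they spanned 0.23, so there the spread between cultures came mostly from replicate 4.

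Per length, Ccl2 was the most abundant of the 10 genes in all 8 libraries, with a median of 177 FPKM, from 78.8 to 833. Cxcl1 (median 82.5 FPKM) and Icam1 (62.9) came next; Cxcl1 exceeded Icam1 in 6 of 8 libraries, so these neighbours in the order overlap. Icam1 exceeded Cxcl12 in 8 of 8. The middle of the order was not resolved: Cxcl12, Lif, Ccl7 and Ptgs2 had medians of 24.9, 22.2, 22.2 and 18.2 FPKM and changed places between libraries. Ptgs2 exceeded Il6 (median 1.65 FPKM) in 8 of 8 libraries, and Cxcl2 (0.631) and Il11 (0.592) had the lowest medians. Together the 10 genes took 0.161% of the counts in 4n replicate 4, against 0.0364% to 0.0564% in the other 4n libraries, and 0.236% in 2n replicate 4, against 0.0430% to 0.0854% in the other 2n libraries.

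No gene of the 10 passed the test of 4n against 2n. In a fit blocked on the replicate number, edgeR's quasi-likelihood test called 554 of 12983 genes higher in 4n (4.27%) and 79 lower (0.608%) at a Benjamini-Hochberg adjusted p under 0.05, and 0 of the 10 genes. At an unadjusted p under 0.05 there were 4 of the 10, with 16.9% of all genes higher and 13.0% lower at that level. DESeq2 called 0 of the 10 (4 unadjusted) and limma-voom 0 (3 unadjusted), both with the block. Log2 fold changes ran from -0.51 to 1.05, with a median of -0.16 beside -0.02 over all genes, and 6 were negative and 4 positive.

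Ccl2 came closest, lower in 4n in 4 of 4 pairs of libraries. Its level was 208 ± 212 CPM in 4n and 265 ± 261 CPM in 2n (SD, n = 4 each). The fitted log2 difference was -0.33 ± 0.11 (SE), at an edgeR adjusted p of 0.102. By pair the difference in log2 CPM was -0.0086 in replicate 1, -0.42 in replicate 2, -0.56 in replicate 3 and -0.31 in replicate 4, hence close to 0 in 1 of the 4. Cxcl12 was also lower in 4n in 4 of 4 pairs, at -0.37 ± 0.16 (SE, edgeR adjusted p = 0.165). Over all genes, 19.7% were lower in 4 of 4 pairs.

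Lif had the most negative fold change, -0.51 ± 0.20 (SE, edgeR adjusted p = 0.147). It was lower in 4n in the pairs of replicates 2, 3 and 4, by -0.40, -1.17 and -0.62, and higher in that of replicate 1, by 0.14. Cxcl2 was the gene higher in 4n in 4 of 4 pairs, as were 20.2% of all genes, at 1.05 ± 0.43 (SE, edgeR adjusted p = 0.149). Its pairs differed by 2.17, 0.76, 1.17 and 0.20 for replicates 1 to 4, smallest in replicate 4, where its counts were highest. Icam1 had -0.28 ± 0.13 (SE, edgeR adjusted p = 0.200).

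The other 5 genes had fold changes within their errors. These were 0.08 ± 0.23 for Il6, 0.27 ± 0.36 for Il11, 0.10 ± 0.15 for Ccl7, -0.06 ± 0.31 for Cxcl1 and -0.26 ± 0.27 for Ptgs2 (SE), with edgeR adjusted p from 0.557 to 0.923. A p that misses the threshold does not show that 4n and 2n were alike. For the 10 genes the pairs did not move as one. In the pair of replicate 1, 8 of the 10 were higher in 4n, beside 49.77% of all genes. In that of replicate 3, 9 of 10 were lower in 4n, beside 50.03% of all genes.

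**Figure D3:**
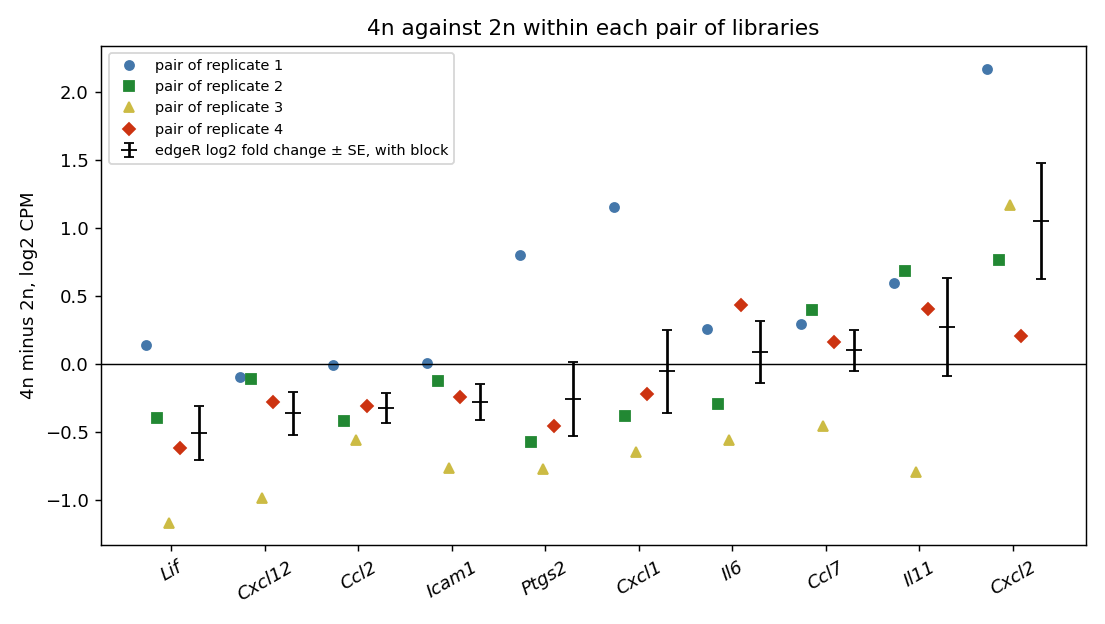
Difference in log2 CPM between 4n and 2n in each pair of libraries with the same replicate number (coloured points), and the edgeR log2 fold change with its SE from the fit with the replicate block (black), for the 10 genes ordered by fold change. Points of replicate 3 lie under 0 for 9 of the genes, beside 50.03% of all genes. Points of replicate 1 lie above 0 for 8, beside 49.77% of all genes. The fitted values run from -0.51 (Lif) to 1.05 (Cxcl2).

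The call of 0 genes depended on a culture and on the scaling. Without the pair of replicate 1, Lif (-0.74, edgeR adjusted p = 0.0302) and Ptgs2 (-0.62, edgeR adjusted p = 0.0190) passed as lower in 4n. With plain totals in place of TMM, the median of all genes moved to -0.26, and Lif, Ccl2, Cxcl12 and Icam1 passed as lower. Relative to that median their log2 fold changes were -0.49, -0.31, -0.35 and -0.27. Without the block, edgeR called 347 genes higher (2.67%) and 1 lower (0.00770%), again 0 of the 10, with adjusted p from 0.642 to 0.963. The block reduced the SE of each of the 10 genes, to between 0.137 and 0.776 of its size.

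The other genes of these pathways were taken as 9 lists with 155 names, of which 99 rows passed the filter. In replicate 4, 41 of these 99 had both libraries above the other 6, or 41.4% beside 6.41% of all genes, and 0 had both below, beside 4.44% of all genes. The lists were set up with earlier results on this culture known, so the share is a description.

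Of 30 other chemokines, 6 passed the filter. All 6 stood above in replicate 4, beside 6.41% of all genes, with a median log2 difference of 2.22. Cxcl3, a paralogue of Cxcl1, had 9.28 CPM in 4n replicate 4, against 0.358 to 1.397 CPM in the other 4n libraries, and 6.48 CPM in 2n replicate 4, against 0.305 to 0.564 CPM in the other 2n libraries. Cxcl10, an interferon-induced attractant of T cells, had 11.7 CPM in 4n replicate 4, against 0.595 to 2.47 CPM, and 14.2 CPM in 2n replicate 4, against 1.26 to 2.56 CPM. The transmembrane chemokine Cxcl16 had 76.6 CPM in 4n replicate 4, against 20.8 to 30.03 CPM, and 59.2 CPM in 2n replicate 4, against 27.7 to 36.2 CPM. Among 4n against 2n comparisons, 0 of the 6 passed with the block.

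Genes of NF-κB signalling were tested in full, 16 of 16. Of these, 10 stood above in replicate 4, beside 6.41% of all genes, with a median difference of 0.62. Nfkbia, the inhibitor IκBα and itself an NF-κB target, had 222 CPM in 4n replicate 4, against 65.1 to 106 CPM, and 225 CPM in 2n replicate 4, against 38.5 to 111 CPM. Nfkbiz, a nuclear relative of the inhibitors, had 101 CPM in 4n replicate 4, against 39.4 to 59.3 CPM, and 141 CPM in 2n replicate 4, against 55.8 to 67.2 CPM. The subunit genes moved less, with log2 differences of 0.21 for Rela and 0.10 for Nfkb1, and Nfkb1 did not stand above. In 4n against 2n, 0 of the 16 passed.

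Among 12 transcription factors and RNA decay genes linked to inflammation, 5 stood above, beside 6.41% of all genes: Irf1, Zfp36, Zc3h12a, Fosb and Junb. Fosb, an immediate early gene, had 685 CPM in 4n replicate 4, against 268 to 376 CPM, and 661 CPM in 2n replicate 4, against 192 to 359 CPM. Fos and Egr1 overlapped between replicate 4 and the other libraries, with log2 differences of 0.41 and 0.36. Among stromal genes induced in inflammation, 8 of 12 stood above, beside the same 6.41% of all genes, with a median of 1.00. Sod2, a mitochondrial superoxide dismutase, had 173 CPM in 4n replicate 4, against 45.1 to 106 CPM, and 133 CPM in 2n replicate 4, against 39.8 to 49.8 CPM.

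In the cytokine list, 3 of 11 tested genes stood above (Il33, Tnf and Il34), beside 6.41% of all genes. Il33, an alarmin cytokine, had 24.0 CPM in 4n replicate 4, against 7.06 to 16.9 CPM, and 26.5 CPM in 2n replicate 4, against 9.68 to 18.4 CPM. Csf1, the growth factor of macrophages and the most abundant of this list, overlapped, with a difference of 0.32. Tnf has 2 rows in the table and only 1 passed the filter, at 2.19 CPM in 4n replicate 4 and 2.13 CPM in 2n replicate 4. Il1b and Il1a did not pass the filter, with 10 and 7 counts in 4n replicate 4 and 3 and 5 in 2n replicate 4. Mif, a cytokine of many cell types, and the fibroblast collagen gene Col1a2 were listed at 0 in all 8 libraries, so a 0 in this table need not mean absence of the RNA.

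Of 14 receptors tested, 1 stood above, a share near the 6.41% of all genes and so no result about the receptors. This was Ackr3, the scavenging receptor of CXCL12. It had 68.7 CPM in 4n replicate 4, against 6.39 to 24.98 CPM, and 62.5 CPM in 2n replicate 4, against 12.0 to 18.6 CPM. Cxcr4, the signalling receptor of CXCL12, had a log2 difference of 3.25 and was highest in replicate 4 within each group, with 59.2 CPM in 4n replicate 4, against 3.49 to 4.58 CPM, and 4.45 CPM in 2n replicate 4, against 0.318 to 1.04 CPM. It overlapped over all 8 libraries, since 4n replicate 3 exceeded 2n replicate 4. Within both groups, 5 of the 14 were highest in replicate 4 (Osmr, Cxcr4, Ackr3, Ackr4 and Il1r2). The share of all genes for this looser measure was not taken, so nothing is read from that count. The measure also held for 11 of 16 NF-κB genes and 4 of 10 JAK-STAT genes. It held for 8 of 12 transcription factor and RNA decay genes, Fos and Egr1 among them. For prostaglandin genes it was 3 of 12 and for hypoxia targets 1 of 12. Il6st, which encodes gp130, had 187 CPM in 4n replicate 4, against 201 to 273 CPM, and 275 CPM in 2n replicate 4, against 244 to 332 CPM. Of 10 genes of the JAK-STAT list, 2 stood above, among them the STAT3 target Socs3. Socs3 had 29.4 CPM in 4n replicate 4, against 16.2 to 16.8 CPM, and 23.7 CPM in 2n replicate 4, against 16.6 to 17.4 CPM. In the prostaglandin list 3 of 12 did so, Ptgs1, Ptger4 and Ptgir, while Ptges3 and Ptgis, which encode a prostaglandin E and the prostacyclin synthase, overlapped. Among 6 tested genes of leukocyte adhesion, Vcam1, Icam2 and Selp stood above, and the median difference of that list was 1.77.

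**Figure D4:**
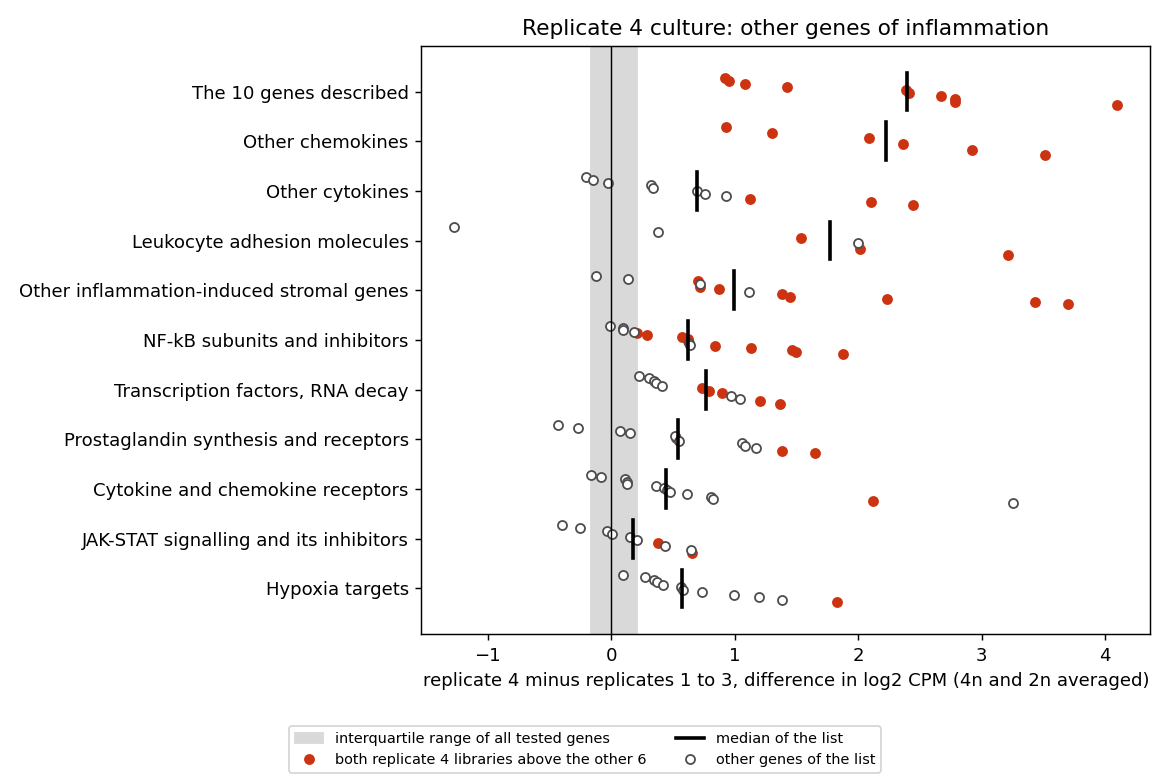
Difference in log2 CPM between replicate 4 and replicates 1 to 3, averaged over 4n and 2n, for the 10 genes and for each tested gene of the other lists; filled points have both replicate 4 libraries above the other 6, black lines are medians of the lists, and the grey band is the interquartile range of all genes tested. Medians run from 2.40 for the 10 genes and 2.22 for the other chemokines to 0.62 for NF-κB genes and 0.18 for JAK-STAT genes.

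In 4n against 2n, 6 of the 99 genes of these 9 lists rose and 1 fell, with the block. These shares, 6.06% and 1.01%, lie near the 4.27% and 0.608% of all genes, so they are no result about the lists. Osmr, which encodes the oncostatin M receptor, a partner of gp130, was the gene that fell. It had 315, 176, 119 and 326 CPM in 4n replicates 1 to 4, against 479, 248, 240 and 552 CPM in 2n replicates 1 to 4 (log2 fold change -0.72 ± 0.11 SE, edgeR adjusted p = 0.0255), lower in 4 of 4 pairs. Cxcr4 rose, with 3.81, 3.49, 4.58 and 59.2 CPM in 4n replicates 1 to 4, against 1.04, 0.694, 0.318 and 4.45 CPM in 2n replicates 1 to 4 (3.03 ± 0.36 SE, edgeR adjusted p = 0.0161). Neither passed without the block (edgeR adjusted p = 0.389 for Osmr and 0.177 for Cxcr4).

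The other genes that rose were the prostaglandin genes Ptgds (4.53 ± 0.39 SE), Ptger3 (2.14 ± 0.40) and Ptgfr (3.44 ± 0.40), and Sele (3.60 ± 0.66) and Selplg (1.23 ± 0.22), which encode an endothelial selectin and a selectin ligand, at edgeR adjusted p from 0.00864 to 0.0369. Of these, Ptgds and Ptgfr also passed without the block. Markers of cell types also differed between the sorted groups. With the block, 4.27% of all genes were called higher in 4n and 0.608% lower. Called higher were 10 of 11 cardiomyocyte, 5 of 7 endothelial and 2 of 6 mesothelial markers. Called lower were 2 of 8 fibroblast markers. The part of these cell types in the differences above was not tested. Without the pair of replicate 2 or of replicate 4, 0 genes of any kind were called, with 1962 and 1404 higher and 1304 and 663 lower at an unadjusted p under 0.05.

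Cells that make or respond to these signals were looked for by their markers. Leukocyte markers had few counts: 14 macrophage and monocyte markers summed to 193 counts in 4n replicate 4, within the 78 to 365 of the 4n libraries, and to 185 in 2n replicate 4, of 103 to 185 in the 2n libraries. As a share of the library, replicate 1 was highest in each group, at 0.00218% in 4n and 0.00103% in 2n, against 0.00126% in 4n replicate 4 and 0.000941% in 2n replicate 4. Of the 14, Cd68, Cd14 and Mrc1 passed the filter, Cd163 was at 0, and both replicate 4 libraries had less Mrc1 than the other 6. The part of these cells in the levels of the 10 genes was not tested. The 7 neutrophil markers summed to 1 count in 4n replicate 4 and 6 in 2n replicate 4, with S100a9, Mpo, Elane and Csf3r at 0 throughout. The 8 lymphocyte markers summed to 6 counts in each replicate 4 library. For 6 mast cell markers, of which 1 passed the filter, the sum was 269 counts in 4n replicate 4, the lowest of the 4n libraries (269 to 367). In 2n replicate 4 it was 301 counts, within the 275 to 506 of the 2n libraries.

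Some markers of endothelial, mesothelial, fibroblast and pericyte cells were higher in replicate 4, and others of the same lists were not. The 7 endothelial markers in the table summed to 519 CPM in 4n replicate 4, against 135 to 154 CPM in the other 4n libraries. In 2n they summed to 185 CPM in replicate 4, against 103 to 127 CPM in the other 2n libraries. The 10 genes described here summed to 1800 CPM in 4n replicate 4, against 439 to 653 CPM, and to 2197 CPM in 2n replicate 4, against 387 to 779 CPM. Of the 7 endothelial markers, 1 (Flt1) had both replicate 4 libraries above the other 6, beside 6.41% of all genes. A looser measure is to be highest in replicate 4 within 4n and within 2n, and its share over all genes was not taken. It held for 5 of the 7 (Cdh5, Kdr, Tie1, Emcn and Flt1), and the median log2 difference of the 7 was 1.72. Cdh5 had 176 CPM in 4n replicate 4, against 15.04 to 21.4 CPM, and 15.05 CPM in 2n replicate 4, against 1.95 to 5.79 CPM. Fibroblast markers took 2.66% of counts in 4n replicate 4 and 4.77% in 2n replicate 4, within the 4n range and lowest of the 2n libraries; Dcn and Lum of this list stood above in replicate 4, and Tcf21 below. Of 6 mesothelial markers, 1 (Upk1b) had both replicate 4 libraries above all others. By the looser measure, 4 were highest in replicate 4 within both groups (Upk1b, Msln, Krt19 and Lrrn4), with a median difference of 1.74 over the 6. Their sum was 83.6 CPM in 4n replicate 4, against 33.5 to 82.5 CPM, and 64.1 CPM in 2n replicate 4, against 28.3 to 72.4 CPM. Of 8 smooth muscle and pericyte markers, Rgs5 (2.35) and Kcnj8 (1.95) stood above, beside a median of 0.13. The part of any of these cells in the levels of the 10 genes was not tested. Of 12 hypoxia targets, 1 stood above in replicate 4 (Car9), a share near the 6.41% of all genes. The median difference of the 12 was 0.57.

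**Figure D5:**
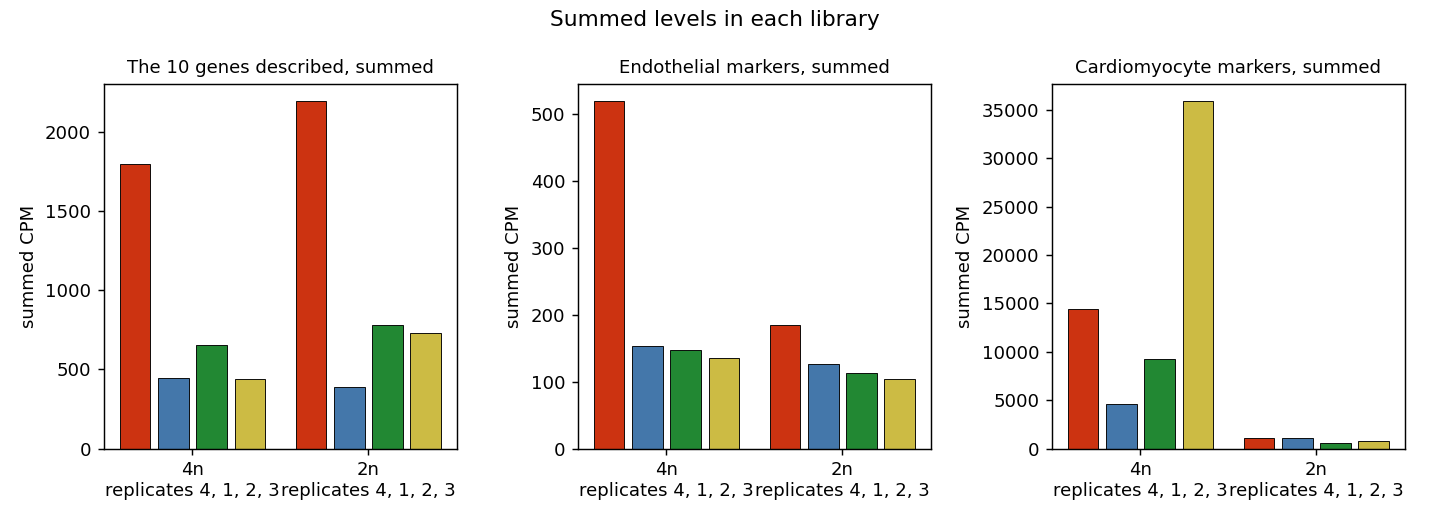
Summed CPM of the 10 genes, of 7 endothelial markers and of 11 cardiomyocyte markers in each library, with 4n left of 2n and replicate 4 first in each group. The 10 genes are highest in both replicate 4 libraries (1800 CPM in 4n and 2197 CPM in 2n), the endothelial markers in 4n replicate 4 (519 CPM), and the cardiomyocyte markers in 4n replicate 3 (35919 CPM).

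For each of the 10 genes, the 3 other genes with the nearest profile were sought among 10239 genes with a mean of at least 5 CPM, by the root-mean-square difference of centred log2 CPM over the 8 libraries. Nearest to Il6 were Lcn2 (0.34), C3 (0.53) and LOC299282 (0.60). C3 had 131 CPM in 4n replicate 4, against 9.44 to 10.6 CPM in the other 4n libraries, and 159 CPM in 2n replicate 4, against 6.42 to 18.5 CPM in the other 2n libraries. Ereg was among the 3 nearest to Ptgs2 (0.25), Ccl2 (0.43), Ccl7 (0.47) and Cxcl1 (0.63). Nfkbia was the third nearest to Ccl2 (0.48) and Zfp36 the third nearest to Icam1 (0.17), after Fndc1 (0.12) and Cd44 (0.16).

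Nearest to Lif were Il1rl1 (0.20), Rgs16 (0.22) and Mnda (0.23), and nearest to Cxcl12 Pcdh20 (0.23), Smoc1 (0.24) and Clec2g (0.25). Rgs5, Angpt2 and Csf2rb were nearest to Cxcl2, at 0.47, 0.54 and 0.59, and Slc39a8, Frmd4b and Lrrc71 to Il11, at 0.23, 0.26 and 0.26. The 8 libraries come from 4 cultures, so each likeness rests on few independent points.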

How the data were processed

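The submitters' processing notes list HISAT2 2.0.4, an aligner, and the rat build Rnor 6.0, while the labels give Rattus rattus as organism. Which program counted reads, with what filters and strand setting, is not given in the sources used here, so reads of overlapping genes on opposite strands cannot be told apart. Per the file headers, the deposited table holds a count and an FPKM value per gene and library. In the deposited FPKM values the count is divided by the table's total for the library, mitochondrial genes included, and by a constant per gene (100% of 14110 genes with at least 10 counts in a library, within 0.001). Gene names and coordinates are the table's.

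Counts were tested with edgeR 4.0.16 (R 4.3.3): genes kept by filterByExpr, TMM scaling, and a robust quasi-likelihood fit of 4n against 2n with the replicate number as a block, two-sided, with Benjamini-Hochberg adjusted p over 12983 genes and a threshold of 0.05. The SE is the size of the fold change over the root of F. The pairing comes from descriptions that begin alike and from the data: deviations of log2 CPM (prior count 2) from group means correlated at 0.43, 0.58, 0.27 and 0.65 within pairs 1 to 4 and at most 0.11 between numbers. The deviations of a group cancel out for each gene, which in itself lowers the correlations between numbers when those within pairs are positive. The contrast is thus partly built in. With the block, p-values set the 4n against 2n difference beside its spread over these pairs, not beside the spread between cultures. The code was tested on simulated data. Alternatives used DESeq2 1.42.0, limma 3.58.1, other scalings and filters, FPKM with pseudocounts of 0.1 and 1, and each pair left out.

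Replicate 4 against the others was given no p-value; Dixon's criterion was used only to list libraries far from their group. The 10 genes and all lists were chosen with earlier results of these data known. Genes named from lists are those called and up to 4 with the highest mean CPM; genes named as the members of a count of 5 or fewer, and Il1a, Il1b, Mif and Col1a2, were chosen after their values were seen. Nearest genes follow the rule given with them. Sequences were not used here, and some genes of the lists are not reported here.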

Additional observations from a re-analysis of the deposited data

Results flagged for a closer look

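A library lay far from the other 3 of its group, by the gap between it and its neighbour set against the group's range (Dixon's test at the 95% level), in 8 of 20 groups examined, and in all 8 it was replicate 4. Chance flags about 1 in 20 groups of values not chosen beforehand. These genes were chosen for standing apart in that culture, and 4n and 2n share the cultures, so the number is a description and is no evidence beyond the levels themselves. In 4n, replicate 4 stood apart for Il6 (26.9 CPM), Ccl7 (107 CPM), Cxcl1 (329 CPM) and Ptgs2 (266 CPM). In 2n, it stood apart for Il6 (19.9 CPM), Ccl7 (96.1 CPM), Cxcl2 (4.31 CPM) and Ptgs2 (365 CPM). The other libraries reached at most 2.20 CPM in 4n and 1.83 CPM in 2n for Il6, and 82.6 CPM in 4n and 79.7 CPM in 2n for Ptgs2.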

How the results depend on the processing

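The height of replicate 4 kept its direction for all 10 genes under the 9 alternatives run. Both libraries stayed above all others for 10 genes in 7 of these and for 9 with total count scaling and on FPKM, where Cxcl12 overlapped. Most of the 7 only took part of the same libraries, either 4n or 2n alone or with replicate 1, 2 or 3 left out. Such subsets use the same levels and could change neither the direction nor the count, so they are no check. Of the rescalings, RLE in place of TMM and TMM without mitochondrial genes kept 10. By group, Cxcl2 had 2.20 in 4n and 3.37 in 2n, and Ptgs2 2.25 in 4n and 2.52 in 2n. For 4n against 2n the counts moved. With no replicate block, edgeR called 347 genes higher, 1 lower and 2 of the other lists. Total count scaling gave 858 higher, 2520 lower, 4 of the 10 genes and 28 of the other lists. DESeq2 gave 1283, 621 and 24 (higher, lower, other lists) and limma-voom 895, 157 and 12. FPKM with pseudocount 0.1 gave 894 higher, 2327 lower, 4 of the 10 genes and 25 of the lists, and with pseudocount 1, 2082 lower, 3 of the 10 and 23. Leaving out a pair gave 0 to 1254 higher, 0 to 399 lower, 0 to 2 of the 10 genes and 0 to 18 of the lists.

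Signs of small fold changes turned. Il6 had -0.15 with total counts, -0.27 and -0.11 on FPKM with pseudocounts 0.1 and 1, and -0.18 to 0.24 with a pair left out, lowest without replicate 4. Ccl7 had -0.15, -0.14 and -0.14 under the same 3 scalings and -0.0046 (without replicate 2) to 0.28 with a pair left out. Cxcl1 had 0.06, 0.14 and 0.0099 without replicates 2, 3 and 4, and -0.44 without replicate 1. The causes were not tested. Leaving the mitochondrial genes out before TMM scaling called 0 of the 10. Il11 and Cxcl2 are limited by counts of 4 to 91.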
